A study of Homo sapiens with 132 samples.

Results

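The genes described here are feedback regulators of cytokine receptor signaling: the 7 suppressor of cytokine signaling genes SOCS1 to SOCS7, their relative CISH, and the kinase genes PIM1 and PIM3. They were found by matching the Ensembl identifiers of the deposited count files to gene symbols, which gave all 10 genes among 65217 identifiers. RNA was sequenced with 3 replicates for each of 44 conditions in established lines of gastric cancer: Hs746T, MKN1, MKN7 and NCI-N87. Hs746T and MKN1 cells stayed untreated or were given the receptor ligand EGF (5 ng/ml), the EGFR antibody cetuximab (1 µg/ml), EGF + cetuximab, the HER2 antibody trastuzumab (5 µg/ml), the ErbB kinase inhibitor afatinib (0.5 µM) or trastuzumab + afatinib, and were harvested at 4 h and 24 h. For NCI-N87 and MKN7 cells the groups were untreated, trastuzumab, afatinib and both drugs, at these times and concentrations. All groups, untreated cells included, were kept in medium with fetal calf serum that was changed before treatment, so that every comparison is between cells in the presence of serum factors. Each line stands for 1 tumor, and the labels do not say whether replicates were separate cultures, so that the p-values measure the spread between these libraries, which may be technical. Afatinib was compared with untreated cells. Libraries with its solvent were not analysed here, and an effect of the solvent cannot be told apart from that of the drug.

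Cytokines and growth factors such as LIF, IL-6 and growth hormone bind receptors that carry JAK kinases. The JAKs phosphorylate STAT transcription factors, and the STATs switch on a small set of genes that dampen the same pathway. SOCS proteins and CISH bind phosphorylated receptors or JAKs through an SH2 domain and hand their targets to an elongin and cullin 5 ubiquitin ligase through the SOCS box. CISH and SOCS2 are known as targets of STAT5, SOCS3 as a target of STAT3. SOCS4 and SOCS5 are best known for restraining EGFR, and SOCS6 and SOCS7 for binding receptor kinases and insulin receptor substrates. PIM1 and PIM3 encode serine and threonine kinases that are active without an activating phosphorylation step, so that their amount is set mainly by transcription, message decay and protein turnover; PIM1 is also a STAT target.

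Library totals ranged from 25832557 to 69434151 counts, and 3 counts, taken as the smallest countable level, corresponded to 0.0432 CPM in the deepest and 0.116 CPM in the shallowest library. This limit covers counting error only. Levels are given in CPM, counts scaled to library size with TMM factors over all libraries, and are listed below in the order of replicates 1, 2 and 3. Differences were tested with edgeR's quasi-likelihood test in all libraries of a line, without pairing by replicate number and with Benjamini-Hochberg adjustment over all genes. A gene is said to have risen or fallen where the adjusted p was below 0.05, and to be regulated where the log2FC was also above 1 or below -1. Counts of members under an alternative, such as DESeq2, library size alone or a replicate left out, are mostly given without the share of all genes in that setting. They describe how calls depend on the processing and are not read as a result about the members. Of the epithelial markers, KRT8 was abundant in MKN1, MKN7 and NCI-N87 cells, whereas CDH1 averaged 2.02 CPM in untreated MKN1 and 0.821 CPM in untreated Hs746T cells, in which VIM was at 468 and 1591 CPM. Counts of the leukocyte marker CD3E did not exceed 5 in a library. In bulk RNA, fewer cells with a transcript and less of it per cell cannot be told apart.

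SOCS1 (ENSG00000185338, chromosome 16, 11254405 to 11256200, GRCh38) was listed at 0 in every library. Genes that cultured cells commonly use were listed at 0 as well, among them JUNB, TIMP1 and all 37 mitochondrial genes, so that nothing was read from this value. The other 9 genes passed the filter on low counts in every line. Their counts per library ranged from 10 for CISH to 21558 for PIM3.

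CISH (ENSG00000114737) lies on chromosome 3 from 50606490 to 50611831 on the minus strand. It was the least abundant of the 9 genes per length of transcript, with 0.378 CPM per kb in untreated MKN7 and 0.130 in untreated NCI-N87 cells. In the 6 untreated libraries of each line its level ranged from 1.12 to 2.59 (median 2.07) CPM in MKN7, from 0.902 to 2.32 (median 1.48) in MKN1, from 0.839 to 1.57 (median 1.45) in Hs746T and from 0.548 to 0.825 (median 0.639) in NCI-N87 cells. NCI-N87 cells were the lowest, below MKN7, MKN1 and Hs746T cells (log2 difference 1.46 for MKN7 minus NCI-N87, 1.13 for MKN1 minus NCI-N87 and -1.03 for NCI-N87 minus Hs746T cells). MKN1 and Hs746T cells, neighbours in this order, did not pass the test (log2 difference 0.10, adjusted p = 0.567).

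The promoter of CISH is shown because it is the window among the members that holds letters of the STAT type. The RefSeq promoter table (GRCh38.p14) gave windows from 250 bases before to 50 bases after the start for 7 of the 10 genes, 8 windows in all. The motif TTCNNNGAA, searched on both strands, was present in 7.66% of the 35116 windows of all genes, and 4 or more matches were present in 7 windows, or 0.0199%. CISH is among these, with matches starting at -241, -230, -129 and -112 from the start site, in capitals below. The windows of SOCS1, SOCS3, SOCS4, SOCS6, PIM1 and PIM3 held none. The 2 windows of SOCS3 and the windows of PIM1 and PIM3 do not cover the start annotated in GENCODE 29.
CISH promoter, chr3:50611725-50612024, minus strand: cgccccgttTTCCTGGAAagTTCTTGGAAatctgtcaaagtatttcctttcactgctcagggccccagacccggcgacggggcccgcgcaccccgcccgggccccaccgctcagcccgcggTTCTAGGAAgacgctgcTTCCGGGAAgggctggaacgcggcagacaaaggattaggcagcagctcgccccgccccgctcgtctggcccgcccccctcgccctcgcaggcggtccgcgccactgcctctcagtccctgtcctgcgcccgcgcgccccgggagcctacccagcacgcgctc
The STAT-type motif with 1 more base between its arms, the AP-1 motif TGANTCA and the CRE motif TGACGTCA were found in no member's window and in 6.44%, 7.71% and 1.85% of all windows. The EGR motif GCGNGGGCG was found in the windows of CISH, SOCS4 and PIM3, and in 9.43% of all windows. A match in these letters is a description of the window and not a measured binding site.

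SOCS2 (ENSG00000120833, chromosome 12, 93569814 to 93583487), which restrains growth hormone receptor signaling, was high in MKN7 cells alone. Its untreated level ranged from 10.6 to 18.2 (median 15.6) CPM in MKN7, from 1.38 to 3.84 in MKN1, from 1.32 to 2.42 in Hs746T and from 1.10 to 2.55 in NCI-N87 cells. MKN7 cells exceeded NCI-N87 cells by a log2 difference of 3.01 (SE 0.17, adjusted p = 2.49e-19 in edgeR's joint fit of the 4 lines). Hs746T and NCI-N87 cells were not shown to differ (-0.06, adjusted p = 0.762).

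SOCS3 (ENSG00000184557, chromosome 17, 78356778 to 78360077), the main brake on receptors that signal through IL6ST, followed another order. Hs746T cells with 15.9 to 26.4 (median 20.5) CPM and MKN7 cells with 13.8 to 24.3 (median 20.9) CPM were close together and did not pass the test of their difference (adjusted p = 0.616). MKN1 cells ranged from 8.21 to 11.6 and NCI-N87 cells from 5.15 to 7.39 CPM. The log2 difference was 1.68 between MKN7 and NCI-N87 cells and -1.05 for MKN1 minus MKN7 cells.

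SOCS4, SOCS5, SOCS6 and SOCS7, the longer members with extended N-terminal regions, were present at 22.7 CPM or more in every untreated library. SOCS6 (ENSG00000170677, chromosome 18, 70288901 to 70330200) was highest in MKN1 cells, at 96.9 ± 16.9 CPM (SD, n = 6), against 43.1 ± 2.55 in Hs746T, 31.5 ± 2.15 in MKN7 and 24.7 ± 1.17 in NCI-N87 cells. SOCS5 (ENSG00000171150, chromosome 2, 46698952 to 46780245) averaged 67.2 ± 6.95 CPM in MKN1 and 61.5 ± 5.99 in MKN7 cells, which were not shown to differ (adjusted p = 0.0986), and 24.9 ± 1.65 in Hs746T cells. SOCS4 (ENSG00000180008, chromosome 14, 55027230 to 55049488) and SOCS7 (ENSG00000274211, chromosome 17, 38352228 to 38405593) were highest in NCI-N87 cells, with 103 ± 2.35 and 82.9 ± 3.53 CPM. The lowest means were 35.98 ± 3.36 CPM for SOCS4, in MKN1 cells, and 36.3 ± 7.29 CPM for SOCS7, in Hs746T cells.

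PIM1 (ENSG00000137193, chromosome 6, 37170203 to 37175426) was highest in MKN7 cells, 42.4 to 62.6 (median 43.97) CPM, and lowest in NCI-N87 cells, 7.40 to 14.2 (median 12.6) CPM. PIM3 (ENSG00000198355, chromosome 22, 49960513 to 49964080) was highest in NCI-N87 cells, at 224 to 327 (median 260.5) CPM, and no library of another line exceeded 123 CPM. Per kb of transcript, untreated NCI-N87 cells had 108 CPM of PIM3 and 3.97 CPM of PIM1. In Hs746T cells PIM1 depended on the replicate: the 14 libraries of replicate 1 ranged from 30.8 to 37.6 CPM, and those of replicates 2 and 3 from 16.7 to 22.0 CPM. Over the 6 pairs of lines, 24 of 54 tests of a member passed both limits in untreated cells, a share near that of all genes, of which 41.9% did so between MKN1 and MKN7, 46.3% between MKN1 and NCI-N87, 48.1% between MKN1 and Hs746T, 44.8% between MKN7 and NCI-N87, 46.3% between MKN7 and Hs746T and 49.5% between NCI-N87 and Hs746T cells.

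**Figure D1:**
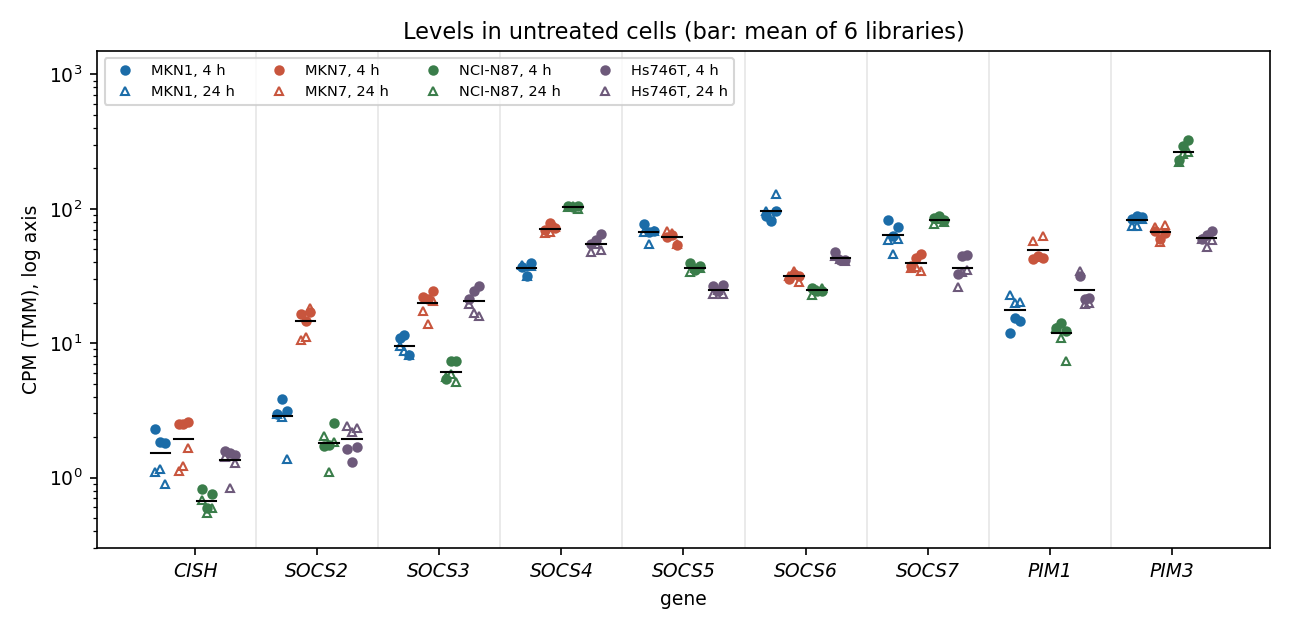
CPM (TMM, log axis) of 9 genes in the 6 untreated libraries of each line, with filled circles for 4 h, open triangles for 24 h and a bar for the mean. SOCS2 stands highest in MKN7 cells and PIM3 in NCI-N87 cells, and CISH lies between 0.548 and 2.59 CPM.

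Afatinib blocks the kinases of EGFR, HER2 and HER4. All members that passed both limits against untreated cells did so with afatinib, alone or with trastuzumab, in MKN7 or NCI-N87 cells. In MKN7 cells after 4 h, CISH and SOCS3 were regulated and fell, while PIM1 and PIM3 rose. In NCI-N87 cells after 4 h, CISH, SOCS2 and SOCS3 fell and PIM1 rose. In MKN1 cells SOCS5 and SOCS6 fell, and in Hs746T cells no member passed the test at either time. At 4 h, 5 of 9 members passed in MKN7 cells, where 22.2% of all genes did, and 4 of 9 in NCI-N87 cells, where 18.2% did. At 24 h, 5 of 9 passed in MKN7 cells against 51.6% of all genes, and 6 of 9 in NCI-N87 cells against 62.5%, shares near those of all genes. The median log2FC of the members at 24 h was -0.30 in MKN7 and -0.43 in NCI-N87 cells, against 0.04 and 0.03 over all genes tested.

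CISH was at 2.49, 2.52 and 2.59 CPM in untreated MKN7 cells at 4 h and at 1.25, 1.20 and 1.38 CPM after 4 h afatinib. The 2 groups did not overlap, and CISH was regulated with a log2FC of -1.03 (SE 0.20, adjusted p = 0.000657). In NCI-N87 cells it went from 0.825, 0.590 and 0.751 to 0.192, 0.258 and 0.302 CPM, with a log2FC of -1.51 (SE 0.31, adjusted p = 0.00145). The afatinib values rest on only 11, 16 and 17 counts, and without replicate 1 the adjusted p was 0.0698.
At 24 h, untreated MKN7 cells were themselves lower, at 1.12, 1.22 and 1.65 CPM, and afatinib-treated cells at 1.01, 0.722 and 0.906 CPM, with a log2FC of -0.61 (SE 0.21, adjusted p = 0.0199). Without replicate 2 or 3 this fall was no longer past the threshold (adjusted p = 0.13 and 0.12). In NCI-N87 cells at 24 h the values were 0.681, 0.548 and 0.596 CPM untreated and 0.419, 0.266 and 0.302 CPM with afatinib, and the log2FC of -0.91 (SE 0.31, adjusted p = 0.0146) lost its call when any replicate was left out (adjusted p = 0.057 to 0.0847).
CISH shares 4.26% of its exon bases with MAPKAPK3 on the opposite strand, which had 1501 to 18829 counts per library. The libraries were directional, but the strand setting of the counting is not given in the sources used here. MAPKAPK3 moved the same way as CISH, its log2FC being -0.28 at 4 h and -0.71 at 24 h in MKN7 cells, and -0.28 and -0.90 in the NCI-N87 line; its part in the CISH counts was not tested.

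SOCS3 fell furthest in MKN7 cells. Its levels were 21.97, 21.3 and 24.3 CPM in untreated cells and 11.3, 8.44 and 9.25 CPM after 4 h afatinib, a log2FC of -1.26 (SE 0.13, adjusted p = 4.56e-07), and after 24 h 17.3, 13.8 and 20.6 against 9.62, 9.63 and 9.51 CPM, a log2FC of -0.85 (SE 0.13, adjusted p = 1.34e-05). All afatinib libraries lay below all untreated libraries at both times, and both calls held under each alternative tried. In NCI-N87 cells after 4 h, SOCS3 went from 5.45, 7.39 and 7.33 to 3.69, 3.14 and 4.28 CPM, again without overlap (log2FC -0.86, SE 0.20, adjusted p = 0.00395, and adjusted p = 0.106 without replicate 2). At 24 h the groups overlapped, at 5.64, 5.94 and 5.15 and 3.81, 3.71 and 5.31 CPM, and the log2FC of -0.42 missed the threshold (adjusted p = 0.0755). With the replicate number as a block it passed (log2FC -0.44, adjusted p = 0.0212).

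SOCS2 was the member with the strongest fall, in NCI-N87 cells. Untreated libraries had 1.71, 1.73 and 2.55 CPM at 4 h and 2.02, 1.10 and 1.83 CPM at 24 h, and afatinib-treated libraries 0.836, 1.05 and 0.976 and 0.402, 0.373 and 0.567 CPM. The groups did not overlap at either time. The afatinib values at 24 h rest on only 23, 21 and 30 counts. SOCS2 was regulated at 4 h (log2FC -1.06, SE 0.29, adjusted p = 0.0113) and at 24 h (log2FC -1.92, SE 0.31, adjusted p = 1.52e-05); the 4 h call was lost without replicate 1 (adjusted p = 0.105) and without replicate 3 (adjusted p = 0.0845).
In MKN7 cells, with the highest SOCS2 level of the lines, 4 h afatinib left overlapping groups (16.4, 14.7 and 17.1 CPM untreated and 16.5, 14.7 and 17.8 CPM treated, log2FC -0.02). At 24 h SOCS2 fell from 10.6, 11.04 and 18.2 to 7.74, 7.70 and 9.61 CPM, a log2FC of -0.68 (SE 0.18, adjusted p = 0.00402).
In MKN1 cells the direction was opposite. SOCS2 rose after 24 h afatinib, from 2.98, 2.81 and 1.38 to 4.29, 4.47 and 3.17 CPM (log2FC 0.71, SE 0.27, adjusted p = 0.0483), and this call was lost without replicate 1 or 2 (adjusted p = 0.16 and 0.144).

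PIM1, in contrast, was higher with afatinib. In MKN7 cells at 4 h it was at 42.4, 44.2 and 43.4 CPM untreated and 63.3, 65.4 and 65.5 CPM treated, a log2FC of 0.54 (SE 0.13, adjusted p = 0.00357) with narrow and separate groups. In NCI-N87 cells it rose from 12.98, 14.2 and 12.3 to 21.5, 18.7 and 20.1 CPM at 4 h (log2FC 0.61, SE 0.18, adjusted p = 0.0188) and from 13.1, 10.99 and 7.40 to 20.1, 15.8 and 23.8 CPM at 24 h (log2FC 0.89, SE 0.18, adjusted p = 0.000196).
The 24 h rise in NCI-N87 cells held under each alternative tried. The 4 h rise in NCI-N87 cells was lost without replicate 1 (adjusted p = 0.177) or 2 (adjusted p = 0.0744), and that in MKN7 cells without replicate 3 (adjusted p = 0.0512). In MKN1 cells PIM1 rose at 24 h, from 23.01, 20.02 and 20.1 to 28.2, 26.5 and 30.5 CPM (log2FC 0.41, SE 0.14, adjusted p = 0.0218), which was lost without replicate 3 (adjusted p = 0.276). In MKN7 cells at 24 h, values of 57.8, 43.8 and 62.6 CPM untreated and 68.1, 50.3 and 52.6 CPM treated overlapped (log2FC 0.05, adjusted p = 0.766).

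PIM3 rose in MKN7 cells after 4 h afatinib, from 68.8, 59.2 and 66.5 to 94.5, 85.2 and 105 CPM, a log2FC of 0.51 (SE 0.16, adjusted p = 0.0241). Leaving out replicate 1 or 3 ended this call (adjusted p = 0.127 and 0.177). In NCI-N87 cells, where its level was several times higher, PIM3 was at 229, 293 and 327 CPM untreated and 297, 324 and 369.6 CPM treated at 4 h (log2FC 0.23, adjusted p = 0.224), and at 224, 254 and 267 and 203, 204 and 237 CPM at 24 h (log2FC -0.24, adjusted p = 0.0829). These overlapping values did not pass the test, whereas with the replicate block PIM3 was higher at 4 h (adjusted p = 0.00573) and lower at 24 h (adjusted p = 0.00148).

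**Figure D2:**
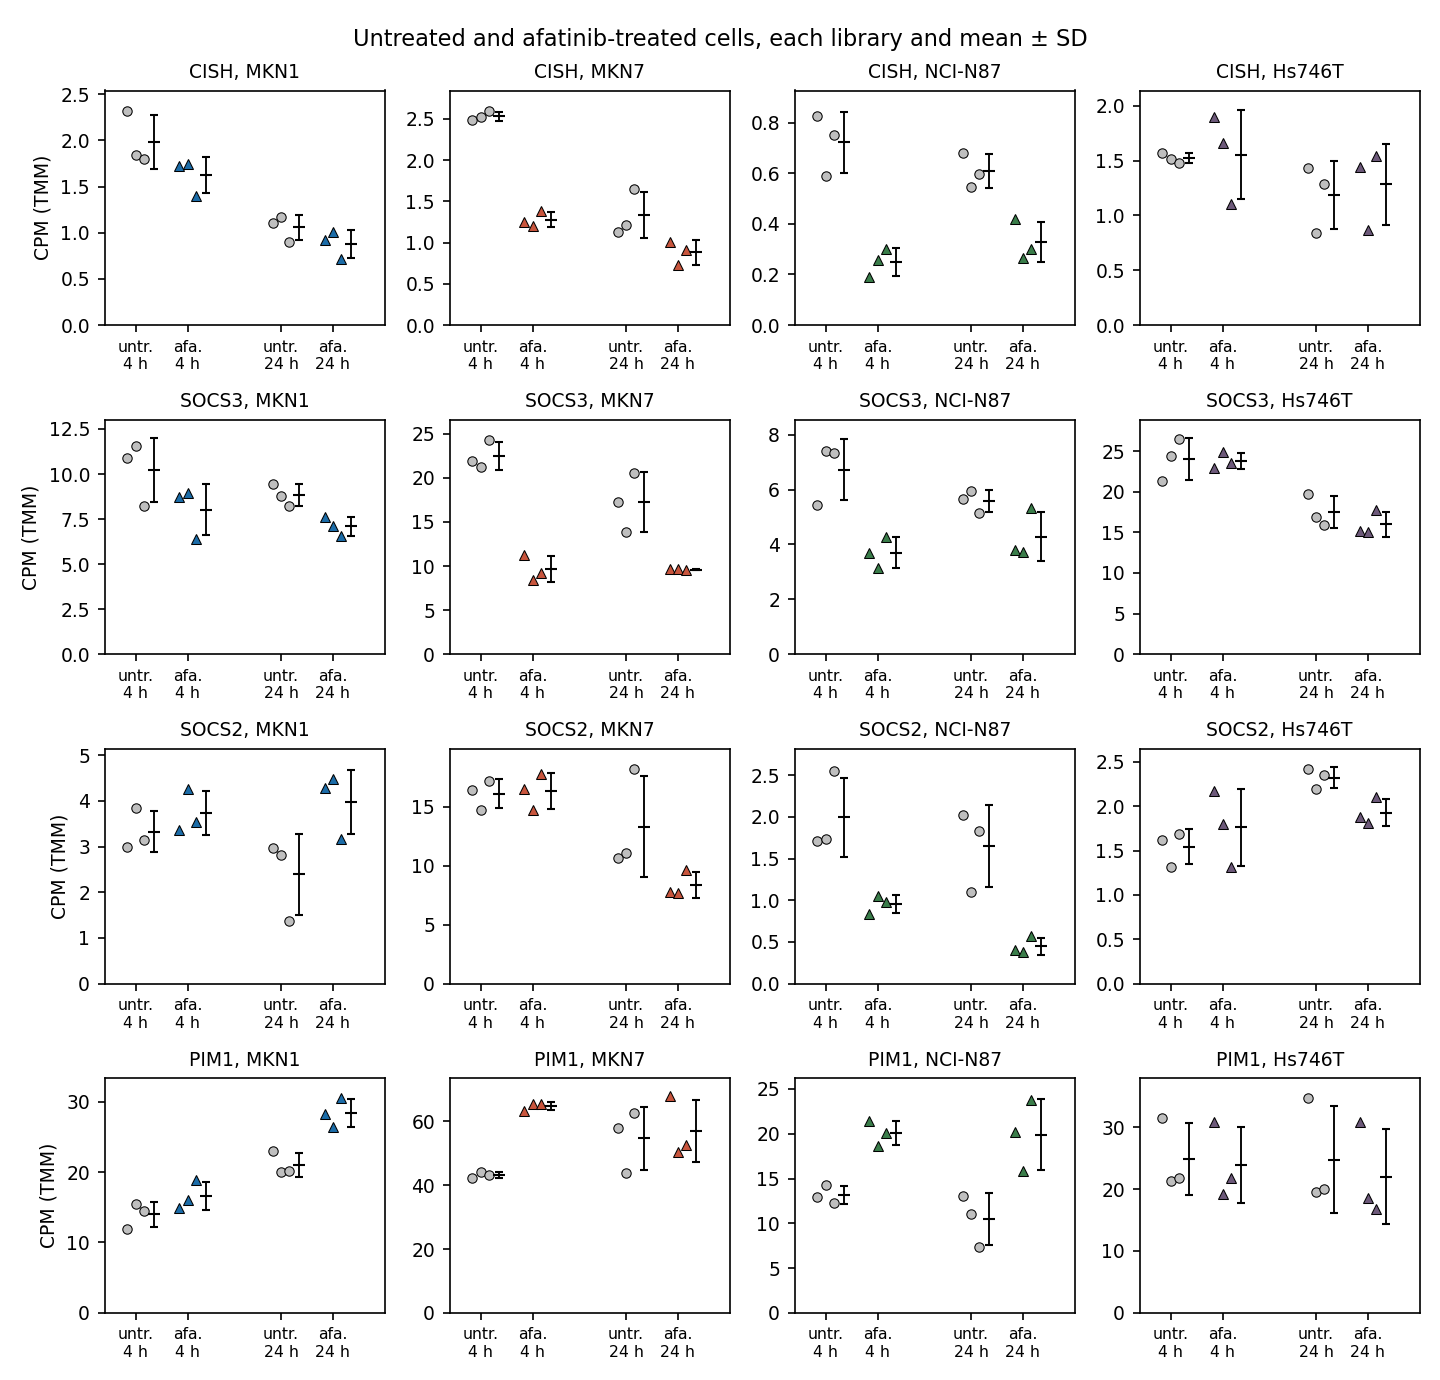
CPM (TMM) of CISH, SOCS3, SOCS2 and PIM1 in each untreated (grey circle) and afatinib-treated (triangle) library of the 4 lines at 4 h and 24 h, with the mean ± SD of 3 libraries beside them. CISH and SOCS3 lie lower with afatinib in MKN7 and NCI-N87 cells at 4 h and PIM1 lies higher, while in Hs746T cells the groups overlap in every panel except SOCS2 at 24 h.

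The longer SOCS genes changed in NCI-N87 and MKN7 cells mainly at 24 h. In NCI-N87 cells SOCS4, a candidate brake on EGFR, had 103, 105 and 99.2 CPM untreated and 66.7, 69.7 and 70.9 CPM after 24 h afatinib, a log2FC of -0.60 (SE 0.09, adjusted p = 8.47e-06). SOCS5 went from 33.7, 36.03 and 36.2 to 22.96, 25.5 and 22.8 CPM (log2FC -0.61, SE 0.07, adjusted p = 2.14e-07) and SOCS6 from 22.7, 24.9 and 25.8 to 18.5, 19.8 and 17.6 CPM (log2FC -0.43, SE 0.08, adjusted p = 7.88e-05). None of these groups overlapped. In MKN7 cells at 24 h SOCS4 fell (log2FC -0.40, SE 0.07, adjusted p = 4.96e-05), as did SOCS7 (log2FC -0.30, SE 0.07, adjusted p = 0.00136); at 4 h SOCS6 fell by 0.23 on the log2 scale (adjusted p = 0.0425), a call that each replicate left out in turn ended (adjusted p = 0.129 to 0.193). With library size in place of TMM, the median log2FC of all genes in NCI-N87 cells at 24 h shifted by 0.26, and 4 in place of 6 members passed there; CISH and SOCS6 then missed the threshold (adjusted p = 0.0723 and 0.11). At 4 h the same scaling gave 2 higher and 3 lower members in NCI-N87 cells in place of 1 and 3.

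In MKN1 cells SOCS6 and SOCS5 fell at both times. SOCS6, which was most abundant in this line, had 87.9, 81.2 and 96.4 CPM untreated and 55.9, 55.9 and 57.2 CPM after 4 h afatinib (log2FC -0.67, SE 0.13, adjusted p = 0.00173), and 96.7, 90.1 and 129 against 59.2, 60.3 and 65.96 CPM at 24 h (log2FC -0.79, SE 0.13, adjusted p = 4.23e-05). SOCS5 went from 76.9, 67.2 and 68.2 to 59.9, 56.02 and 49.1 CPM at 4 h (log2FC -0.38, SE 0.09, adjusted p = 0.0104) and from 67.7, 55.1 and 68.1 to 57.04, 46.6 and 46.5 CPM at 24 h (log2FC -0.36, SE 0.09, adjusted p = 0.00282). In all, 2 of 9 members passed at 4 h, where 3.68% of all genes did, and 4 of 9 at 24 h, where 25.6% did.
Without replicate 1 or 2, 0 members passed at 4 h in edgeR's test, with adjusted p = 0.0523 and 0.0593 for SOCS6, and without replicate 3 only SOCS6 did. At 24 h, 2 members passed without replicate 3, SOCS5 having lost its call (adjusted p = 0.217). CISH had 2.32, 1.84 and 1.80 CPM untreated and 1.72, 1.74 and 1.40 CPM after 4 h, and SOCS3 10.9, 11.6 and 8.21 and 8.75, 8.93 and 6.41 CPM. The CISH groups did not overlap and the SOCS3 groups did, and neither passed in the test without a block (log2FC -0.31, adjusted p = 0.681, and log2FC -0.37, adjusted p = 0.295), and SOCS3 passed with the replicate block (adjusted p = 0.000286).

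In Hs746T cells, described in the study as not responding to afatinib, 0 of 9 members and 0% of all genes passed edgeR's test at 4 h and at 24 h. Among the members, 0 had an unadjusted p below 0.05 at either time, and DESeq2 called 0. The log2FC of the members ran from -0.19 (SOCS5) to 0.23 (SOCS2) at 4 h and from -0.27 (SOCS2) to 0.10 (CISH) at 24 h. CISH was at 1.57, 1.51 and 1.48 CPM untreated and 1.90, 1.66 and 1.11 CPM treated at 4 h, SOCS3 at 21.4, 24.4 and 26.4 and 22.96, 24.9 and 23.5 CPM, with overlap in both. The replicate block called 2 members at 4 h, where it called 18.6% of all genes: SOCS5 (log2FC -0.20, adjusted p = 0.0335) and SOCS6 (log2FC -0.14, adjusted p = 0.0277).

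**Figure D3:**
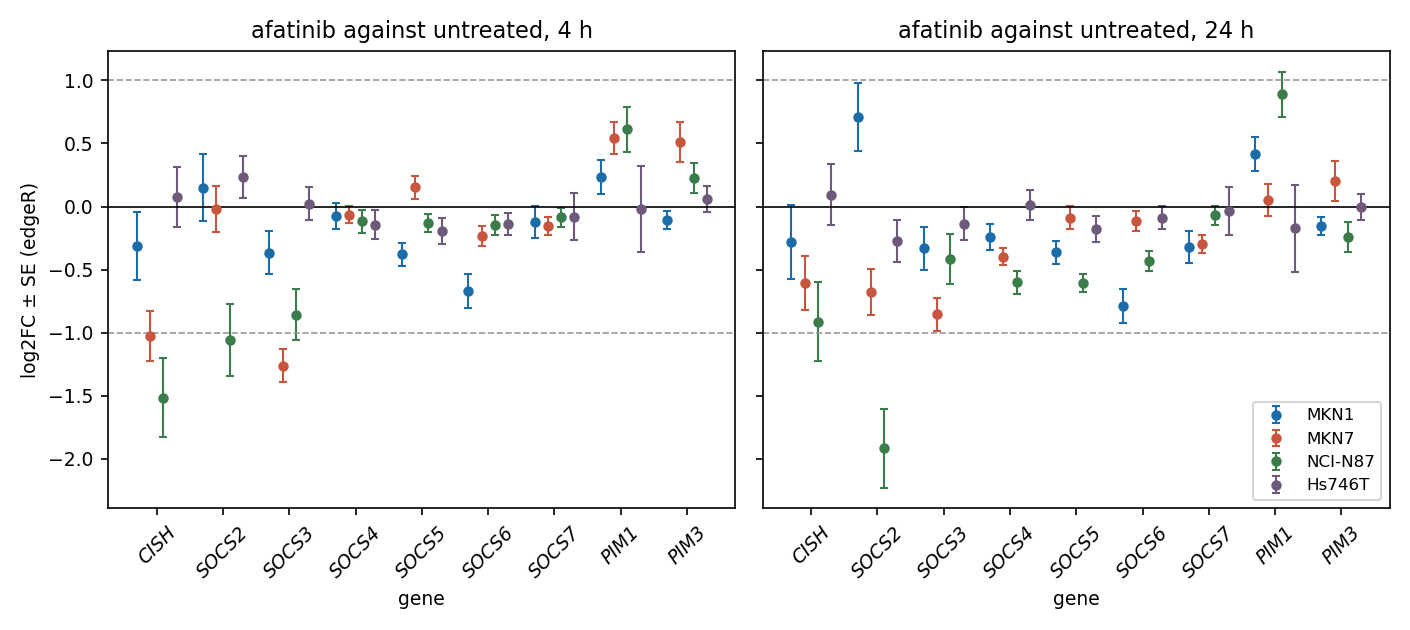
log2FC of afatinib against untreated cells (edgeR estimate, bars ± SE) for 9 genes in 4 lines at 4 h and 24 h, with dashed lines at 1 and -1. CISH, SOCS2 and SOCS3 reach or pass -1 in MKN7 or NCI-N87 cells, PIM1 lies above 0 in NCI-N87 cells, and Hs746T estimates lie between -0.27 and 0.23.

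Whether the effect of afatinib differed between lines was tested with interaction terms in a joint fit of the 48 untreated and afatinib libraries. Of 54 tests at each time, 5 passed both limits at 4 h and 5 at 24 h. Of all genes, 0.415% (MKN1 and MKN7), 0.548% (MKN1 and NCI-N87), 0.178% (MKN1 and Hs746T), 0.42% (MKN7 and NCI-N87), 1.77% (MKN7 and Hs746T) and 2.15% (NCI-N87 and Hs746T) did so at 4 h. At 24 h these shares were 3.77%, 14.0%, 1.31%, 10.3%, 7.24% and 20.3%, and the rate of the members lay within their range. The rate of the members at 4 h lay above the range for that time. It rests on few genes, and the pairs of lines share libraries, so that the tests are not independent. SOCS2 had the largest difference: its afatinib effect at 24 h was higher in MKN1 than in NCI-N87 cells by 2.61 (SE 0.36, adjusted p = 3.58e-07 in edgeR). It was also higher in MKN1 than in MKN7 cells, by 1.40 (adjusted p = 0.00272), and more negative in NCI-N87 than in Hs746T cells (log2 difference -1.61, adjusted p = 0.000495).
At 4 h the effect on CISH was more negative in NCI-N87 than in Hs746T cells (log2 difference -1.56, SE 0.34, adjusted p = 0.00222), and more negative in MKN7 than in Hs746T cells (log2 difference -1.03, adjusted p = 0.0328). The effect on SOCS3 was more negative in MKN7 than in Hs746T cells (log2 difference -1.21, SE 0.21, adjusted p = 0.000262). PIM1 differed between NCI-N87 and Hs746T cells at 24 h, by 1.10 (SE 0.30, adjusted p = 0.00301). The 4 h differences rest on all 3 replicates, since 1 passed without replicate 1, 0 without replicate 2 and 3 without replicate 3; at 24 h these numbers were 5, 3 and 4. The SOCS6 effect at 24 h was more negative in MKN1 than in MKN7 cells (-0.66, adjusted p = 0.00152), in Hs746T cells (-0.68, adjusted p = 0.00297) and in NCI-N87 cells (-0.38, adjusted p = 0.0355), each below the limit of 1 in size.

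The effect of afatinib at 24 h was set against that at 4 h within each line. Under edgeR's interaction term, 3 of 9 members differed in NCI-N87 cells, where 35.8% of all genes did, and 1 of 9 in MKN7 cells, where 18.0% did. In MKN1 and Hs746T cells 0 members passed in edgeR or DESeq2, with 2.77% and 0% of all genes and with 0 and 1 members at an unadjusted p below 0.05. All were more negative at 24 h and none exceeded a log2 difference of 1 in size: SOCS4 (-0.48), SOCS5 (-0.47) and PIM3 (-0.47) in NCI-N87 cells and SOCS4 (-0.33) in MKN7 cells. Each of the replicates left out in turn ended the call in MKN7 cells (adjusted p = 0.0657 to 0.0919). In NCI-N87 cells leaving out replicate 2 ended the calls of PIM3 (adjusted p = 0.28) and SOCS4 (adjusted p = 0.113), leaving out replicate 1 that of PIM3 (adjusted p = 0.139), and library size alone all 3. In MKN7 cells DESeq2 called 3 members in place of 1, SOCS4, SOCS2 and PIM1. The replicate block called 5 members in NCI-N87 cells, where it called 50.9% of all genes, and 6 in MKN7 cells, where it called 36.7%, among them SOCS3, whose fall was smaller at 24 h (0.43, adjusted p = 0.00917), and PIM1, whose rise was smaller at 24 h (-0.49, adjusted p = 0.000491).

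EGF and cetuximab were given to MKN1 and Hs746T cells. In MKN1 cells, which the study describes as responding to cetuximab, EGF raised PIM3 at 4 h and CISH, SOCS3 and SOCS5 at 24 h. PIM3 went from 84.02, 87.9 and 87.6 to 116, 116 and 123 CPM after 4 h EGF, without overlap (log2FC 0.46, SE 0.07, adjusted p = 1.89e-05), and was back at 75.3, 76.2 and 73.01 CPM after 24 h, against 74.02, 74.8 and 83.6 CPM untreated. This was 1 of 9 members at 4 h, where 6.82% of all genes passed. The replicate block called 4 members at 4 h, where it called 17.0% of all genes: besides PIM3 these were SOCS2 (log2FC 0.53), SOCS3 (0.31) and SOCS5 (0.19), all higher.
At 24 h, SOCS3 went from 9.45, 8.78 and 8.23 to 17.2, 14.1 and 12.3 CPM (log2FC 0.74, SE 0.17, adjusted p = 0.000865), and the lowest EGF library lay above the highest untreated one. CISH went from 1.10, 1.17 and 0.902 to 2.24, 1.96 and 1.10 CPM, with replicate 3 of EGF inside the untreated range (log2FC 0.75, SE 0.28, adjusted p = 0.0336). SOCS5 rose from 67.7, 55.1 and 68.1 to 87.4, 75.8 and 77.8 CPM (log2FC 0.36, SE 0.09, adjusted p = 0.00216).
These 3 of 9 members compare with 35.8% of all genes. Without replicate 1 or 2, 1 member passed: without replicate 1, CISH (adjusted p = 0.358) and SOCS3 (adjusted p = 0.0705) were lost, and without replicate 2, CISH (adjusted p = 0.153) and SOCS5 (adjusted p = 0.0539). Without TMM, the median over all genes moved by -0.20 (log2) in this comparison, and scaling by library size gave 1 higher member, SOCS3, and 2 lower ones in place of 3 higher and 0 lower. MAPKAPK3, which overlaps CISH, rose as well (log2FC 0.94, adjusted p = 8.18e-09).

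Cetuximab alone changed 0 of 9 members in MKN1 cells at 4 h in edgeR's test, where 1.43% of all genes passed; 2 members had an unadjusted p below 0.05 and DESeq2 called 1. SOCS6 was closest, at 87.9, 81.2 and 96.4 CPM untreated and 60.1, 64.4 and 65.7 CPM with cetuximab, without overlap (log2FC -0.49, adjusted p = 0.0528). The replicate block called it (adjusted p = 4.70e-05) together with SOCS5 (log2FC -0.26) and SOCS3 (log2FC -0.23), all lower, while it called 7.5% of all genes. At 24 h PIM3 alone passed, at 74.02, 74.8 and 83.6 CPM untreated and 70.3, 60.5 and 68.1 CPM treated (log2FC -0.24, SE 0.07, adjusted p = 0.0215), where 10.8% of all genes did, and without replicate 2 or 3 it did not (adjusted p = 0.0833 and 0.307).
Afatinib and cetuximab were also compared directly. In MKN1 and Hs746T cells at both times, 0 of 36 tests of a member passed in edgeR or in DESeq2, while 4 had an unadjusted p below 0.05 in edgeR, and at most 0.0757% of all genes passed in any of the 4 comparisons. In MKN1 cells the log2FC of afatinib over cetuximab ran from -0.18 (SOCS6) to 0.12 (PIM1) at 4 h and from -0.44 (SOCS6) to 0.67 (SOCS2) at 24 h.

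EGF + cetuximab was compared with EGF to see what the antibody did to the EGF response. In MKN1 cells 0 of 9 members passed at 4 h and at 24 h in edgeR and in DESeq2, with 1 member at an unadjusted p below 0.05 at each time, and 0.701% and 0.646% of all genes passed. PIM3 was at 97.3, 104 and 107 CPM with EGF + cetuximab at 4 h, below each of the EGF libraries and above each untreated one (log2FC against EGF -0.20, adjusted p = 0.314). SOCS3 was at 11.9, 11.2 and 8.55 CPM at 24 h, below each of the EGF libraries (log2FC -0.47, adjusted p = 0.246). EGF + cetuximab against untreated MKN1 cells gave 0 calls of members in edgeR at both times, with 1 at an unadjusted p below 0.05 and with 0.717% and 18.6% of all genes called at 4 h and 24 h. At 4 h DESeq2 called 1 member there, PIM3, and the replicate block called 2, PIM3 (log2FC 0.26, adjusted p = 0.0121) and SOCS3 (log2FC 0.25, adjusted p = 0.0269), among 3.93% of all genes. With the replicate block SOCS2 was lower than with EGF at 4 h (log2FC -0.46, adjusted p = 0.0384), where 3.99% of all genes passed.
In Hs746T cells, EGF, cetuximab and EGF + cetuximab gave 0 of 54 calls against untreated cells in edgeR and in DESeq2, with 0% of all genes called in each comparison and 2 members at an unadjusted p below 0.05. CISH there had 1.97, 1.80 and 1.38 CPM and SOCS3 24.4, 24.3 and 23.97 CPM after 4 h EGF, within or near the untreated range. The difference between the EGF effects of the 2 lines was not tested. The treatments of a line and time share the same 3 untreated libraries, so that their log2FC values are not independent.

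**Figure D4:**
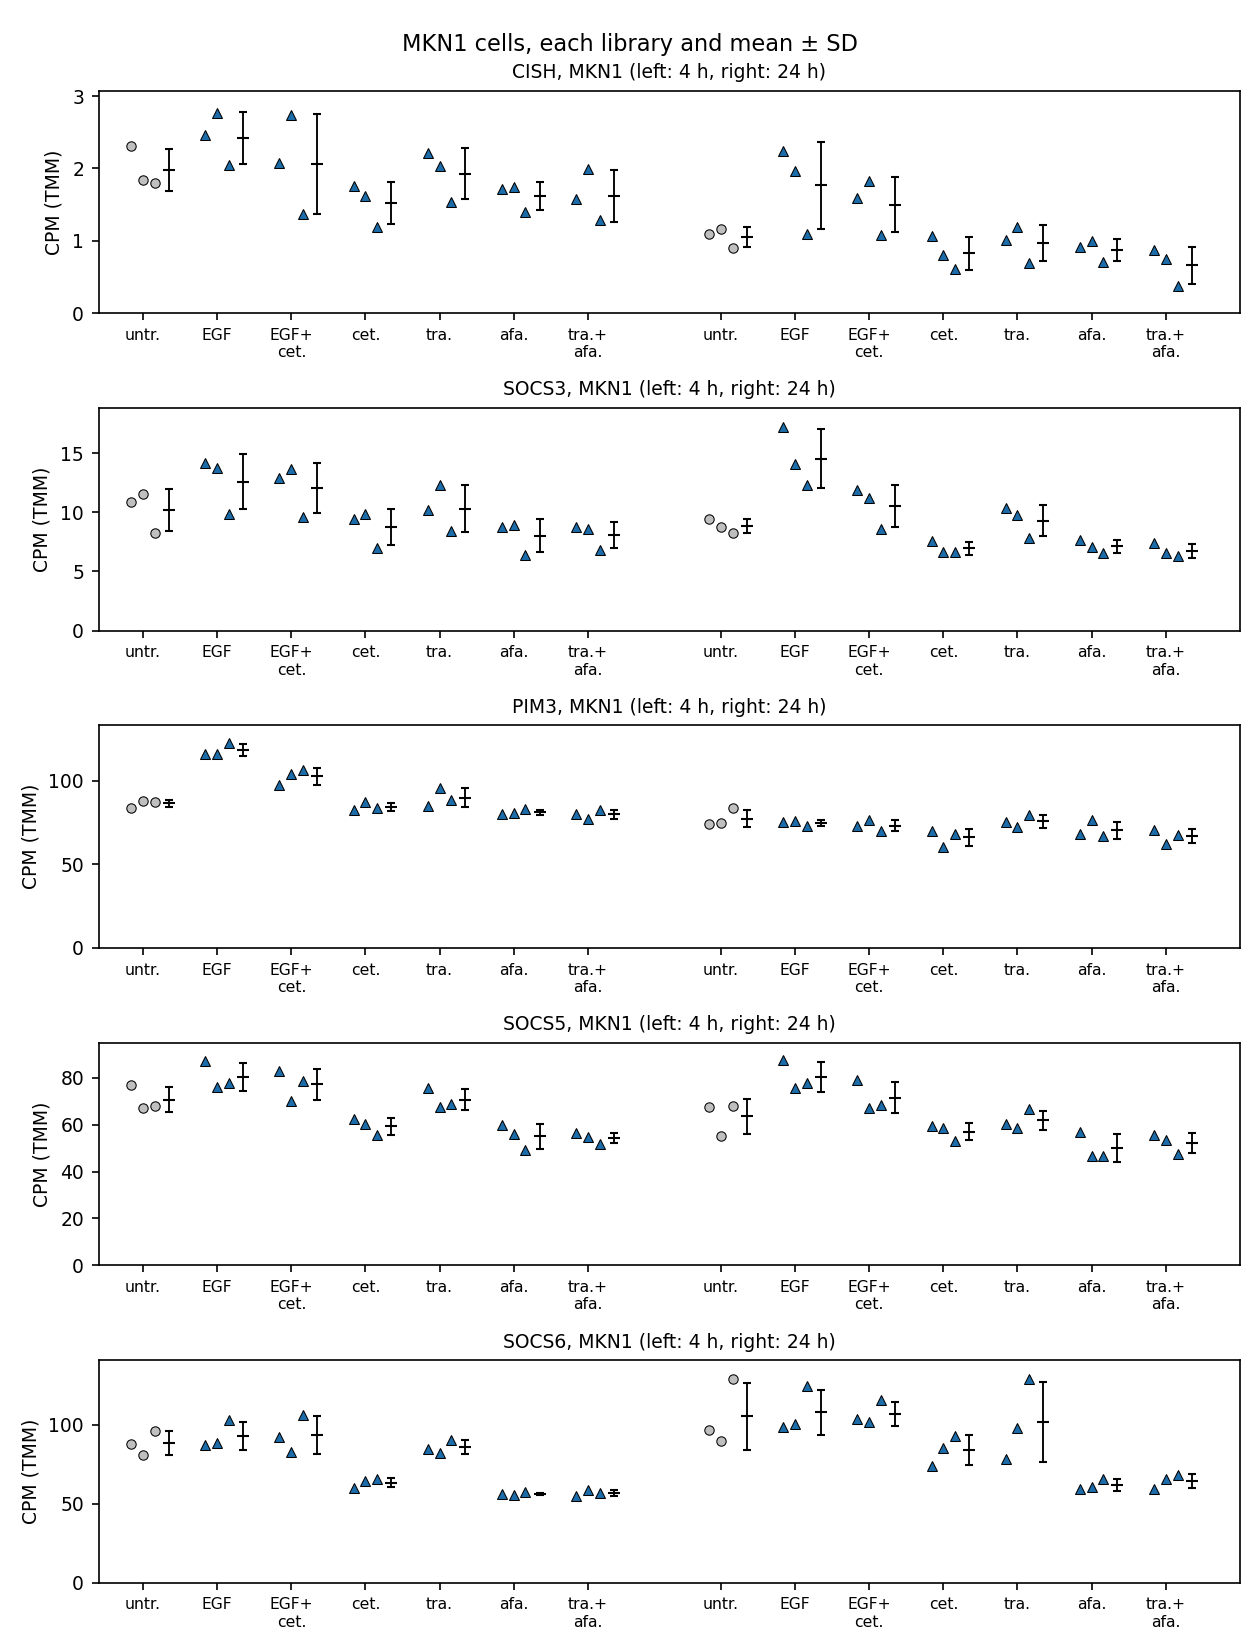
CPM (TMM) of CISH, SOCS3, PIM3, SOCS5 and SOCS6 in each MKN1 library by treatment (left 4 h, right 24 h), with grey circles for untreated cells, triangles for treated cells and the mean ± SD of 3 libraries. PIM3 is highest with EGF at 4 h, SOCS3 with EGF at 24 h, and SOCS6 is lowest with afatinib, alone or with trastuzumab.

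No change of a member with trastuzumab was detectable with 3 replicates. In the 4 lines at both times, 0 of 72 tests of a member passed in edgeR, in DESeq2 or with the replicate block, 1 had an unadjusted p below 0.05, and 0% of all genes passed in each comparison. In NCI-N87 cells, which the study describes as sensitive to trastuzumab, the log2FC of the members ran from -0.13 (SOCS5) to 0.33 (SOCS3) at 4 h and from -0.17 (SOCS2) to 0.03 (PIM3) at 24 h. CISH was at 0.612, 0.650 and 0.976 CPM and SOCS2 at 1.88, 1.51 and 2.82 CPM after 4 h trastuzumab, overlapping the untreated libraries.
Adding trastuzumab to afatinib gave 0 of 72 calls against afatinib alone in edgeR, in DESeq2 and with the block, and 0 members had an unadjusted p below 0.05. Against untreated cells, the combination gave the same 5 of 9 count as afatinib in MKN7 cells at 4 h (23.4% of all genes), 4 of 9 at 24 h (51.9%), 4 of 9 and 8 of 9 in NCI-N87 cells (17.3% and 64.7%), and 2 of 9 and 4 of 9 in MKN1 cells (3.95% and 26.8%). With library size in place of TMM, the median over all genes moved by 0.31 (log2) in NCI-N87 cells at 24 h, and the combination gave 2 higher and 2 lower members there in place of 1 and 7. It then gave 2 higher and 3 lower members in NCI-N87 cells at 4 h in place of 1 and 3. In MKN1 cells it gave 1 lower in place of 2 at 4 h and 1 higher and 1 lower in place of 1 and 3 at 24 h. The share of all genes called with library size alone is not given, so that these counts were not read as a result about the members. The replicate block called 7 members in MKN7 cells at 24 h and 7 in NCI-N87 cells at 4 h, where it called 64% and 32.5% of all genes. In NCI-N87 cells SOCS2 was at 0.428, 0.399 and 0.430 CPM after 24 h of the combination (log2FC -2.00, SE 0.31, adjusted p = 9.61e-06) and CISH at 0.360, 0.203 and 0.380 CPM after 4 h (log2FC -1.22, SE 0.31, adjusted p = 0.00845). SOCS3 in MKN7 cells was at 9.89, 9.04 and 9.16 CPM after 4 h (log2FC -1.29, SE 0.13, adjusted p = 2.77e-07).

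**Figure D5:**
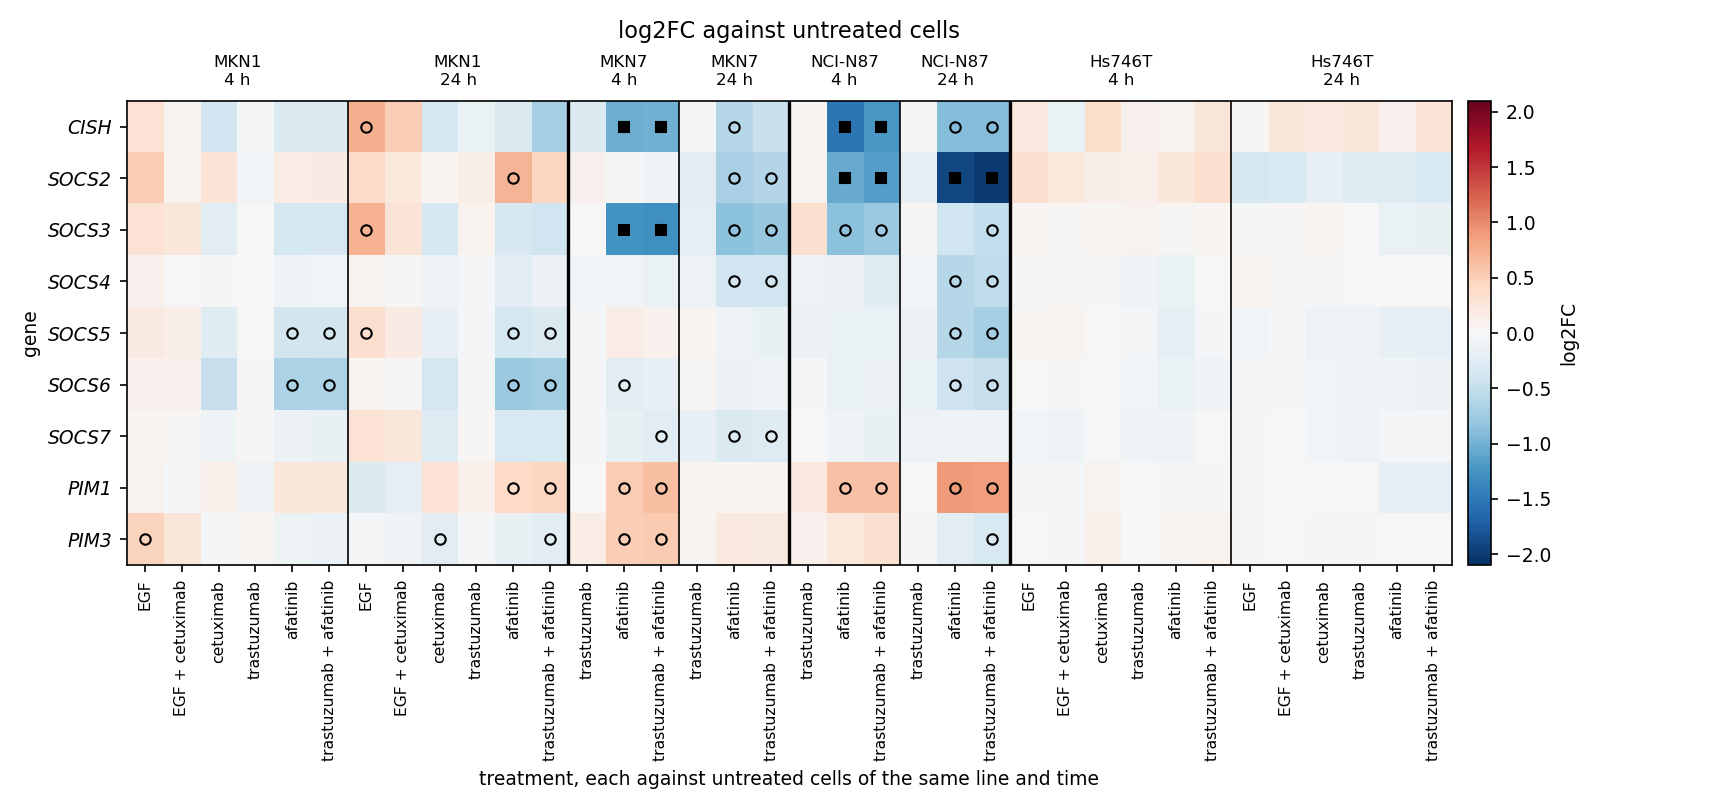
log2FC of 9 genes in 36 comparisons of treated with untreated cells of the same line and time (color scale from -2.1 to 2.1). Circles mark an adjusted p below 0.05 and squares also a log2FC above 1 or below -1; all squares lie in the afatinib columns, alone or with trastuzumab, of MKN7 and NCI-N87 cells.

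Untreated cells collected at 24 h were also compared with those collected at 4 h. In MKN1 cells 4 of 9 members passed, where 34.1% of all genes did, and in MKN7 cells 3 of 9, where 16.4% did. CISH fell in both: its MKN1 values of 2.32, 1.84 and 1.80 CPM at 4 h and 1.10, 1.17 and 0.902 CPM at 24 h gave a log2FC of -0.93 (SE 0.28, adjusted p = 0.00907), and those in MKN7 cells, listed above, a log2FC of -0.96 (SE 0.20, adjusted p = 0.00258). PIM1 rose in MKN1 cells, from 11.96, 15.5 and 14.5 to 23.01, 20.02 and 20.1 CPM (log2FC 0.57, SE 0.14, adjusted p = 0.00151).
SOCS7 fell in MKN1 (-0.43) and MKN7 cells (-0.26), SOCS3 in MKN7 cells (-0.42) and PIM3 in MKN1 cells (-0.18). In NCI-N87 cells 0 members passed in edgeR and 0 had an unadjusted p below 0.05, and 0.267% of all genes passed. In Hs746T cells 0 passed in edgeR, 2 in DESeq2 and 2 had an unadjusted p below 0.05, with 1.48% of all genes. Over the 4 lines 7 tests passed with all replicates, 2 without replicate 1 and 4 without replicate 2; the falls of CISH lost their calls without replicate 1 (adjusted p = 0.178 in MKN1 and 0.0782 in MKN7 cells), that in MKN7 cells also without replicate 2 (adjusted p = 0.0623). With library size in place of TMM, 2 members were higher and 1 lower in MKN1 cells in place of 1 and 3, since SOCS7 and PIM3 lost their calls and SOCS6 gained one as higher, and the median over all genes moved by 0.17 (log2). In MKN7 cells 1 was higher and 2 lower in place of 0 and 3, with PIM1 called and SOCS7 not. With the replicate number as a block over both times, an alternative chosen after seeing the data, 8 members passed in MKN1 cells (47.2% of all genes), 5 in MKN7 cells (30.9%), 3 in Hs746T cells (10.2%) and 0 in the NCI-N87 line (4.32%). Those in Hs746T cells were SOCS2 (log2FC 0.61, adjusted p = 0.00447), SOCS3 (log2FC -0.42, adjusted p = 0.00794) and SOCS7 (log2FC -0.32, adjusted p = 0.000624).

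The other genes of the pathway are given by list, to be read against the share of all genes called with afatinib, which was 3.68% in MKN1, 22.2% in MKN7 and 18.2% in NCI-N87 cells at 4 h and 25.6%, 51.6% and 62.5% at 24 h. With EGF in MKN1 cells it was 6.82% at 4 h and 35.8% at 24 h. Among 22 cytokines and receptors, afatinib at 4 h lowered 4 of 17 tested genes in MKN1 cells, 6 of 16 in the MKN7 line and 4 of 16 in the NCI-N87 line. It raised 0, 1 and 0. LIF, a ligand of LIFR and IL6ST, fell in each of them, with a log2FC of -1.63 in MKN1, -1.55 for MKN7 and -1.96 for NCI-N87 cells. IL11, another IL6ST ligand, fell in MKN1 (-1.43) and MKN7 cells (-1.24). After 4 h EGF in MKN1 cells, 6 of 17 rose and 0 fell, with LIF at 1.75, IL11 at 1.52 and the growth hormone receptor gene GHR at 1.17. At 24 h afatinib raised 2, 4 and 1 and lowered 5, 5 and 8 of these genes in MKN1, MKN7 and NCI-N87 cells. The receptor gene OSMR had a log2FC of -1.35 in NCI-N87 cells. Another receptor gene, IL11RA, rose in MKN1 (0.98), MKN7 (1.17) and NCI-N87 cells (1.47).
Among 10 genes for JAKs and STATs, afatinib at 4 h raised 0, 1 and 1 and lowered 0, 2 and 1 in the same lines, while at 24 h it raised 3, 5 and 7 and lowered 0, 2 and 1. These were 3, 7 and 8 of the 10 at 24 h, where 25.6%, 51.6% and 62.5% of all genes passed. STAT2, a mediator of the type I interferon response, rose at 24 h by a log2FC of 0.47, 1.14 and 1.86, and JAK3 by 1.19 in MKN7 and 1.66 in NCI-N87 cells. After 24 h EGF in MKN1 cells 0 rose and 5 fell, STAT4 by the most (log2FC -1.36).
Of 9 other brakes on the pathway, PIAS proteins, tyrosine phosphatases and SH2B3, 0, 2 and 1 rose and 1, 3 and 1 fell after 4 h afatinib in the same lines. SH2B3, an adaptor that restrains JAK2, fell in MKN1 and MKN7 cells (log2FC in MKN7 cells -1.30), with a log2FC of 1.30 after 4 h EGF in MKN1 cells. At 24 h of afatinib 1, 3 and 3 rose and 5, 3 and 4 fell; the phosphatase gene PTPN6 had a log2FC of 1.05 and PTPN1 of -1.08 in NCI-N87 cells.

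The partners through which the SOCS box reaches its ligase, ELOB, ELOC, CUL5 and RNF7, passed in no line at 4 h of afatinib. At 24 h ELOC fell in MKN7 (-0.53) and NCI-N87 cells (-1.01), and CUL5 in NCI-N87 cells (-0.24). PIM2, the relative of PIM1 and PIM3, fell after 24 h afatinib in MKN1 (-0.24) and MKN7 cells (-0.58), and rose after 4 h EGF in MKN1 cells (0.45).
Of 10 STAT3 output genes, 7 or 8 were tested in a line. After 4 h afatinib 3 fell and 0 rose in MKN1 and in MKN7 cells, and 4 fell and 2 rose in NCI-N87 cells, MYC falling in each (log2FC -1.81, -1.86 and -2.11) and BCL6 rising in NCI-N87 cells (1.12). At 24 h 3, 3 and 4 fell and 1, 2 and 3 rose. MYC is also a target of MAPK signaling.
Of the MAPK output genes, immediate readouts of ERK activity, 8 of 8 tested fell with afatinib at both times in each line but Hs746T, with a median log2FC between -4.12 and -2.23, and 0 of 9 passed in Hs746T cells. DUSP6, an ERK phosphatase, had a log2FC of -4.01 in MKN7 and -4.77 in NCI-N87 cells at 4 h. EGF raised 6 of 8 of them in MKN1 cells at each time and cetuximab lowered 8 of 8. Trastuzumab gave 0 calls in each of these lists in each line.
The drug target EGFR fell after afatinib in MKN7 cells at 4 h and 24 h (-0.54 and -0.80) and in NCI-N87 cells (-0.43 and -1.36), while ERBB2 rose at 24 h (0.59 and 0.57).

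Across the 36 comparisons with untreated cells, the members with the widest spread of log2FC were SOCS2 (SD 0.60), CISH (SD 0.52) and SOCS3 (SD 0.44). The genes with the most similar profile among 15748 genes tested in every line were PIP4P2 (Pearson's r = 0.942), BRD2 (0.920) and SNAI1 (0.919) for SOCS2, NIFK (0.944), DNAAF2 (0.934) and POLR3D (0.925) for CISH, and ASB1 (0.962), NFKBIE (0.934) and FHOD1 (0.933) for SOCS3. Among the members themselves CISH and SOCS3 had r = 0.865 and CISH and PIM1 r = -0.857. These values describe 36 points that share untreated libraries, lines and the strong afatinib comparisons, and they carry no test.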

How the data were processed

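RNA-seq libraries were prepared from purified mRNA with a directional kit and sequenced paired-end, and per the labels reads were trimmed with Trim Galore and aligned with STAR to hg38; tool versions, the counter, its annotation and its strand setting are not given in the sources used here. The authors deposited raw counts per Ensembl gene for each library. Identifiers were matched to GENCODE 29; 8404 of 65217, with 0.0422% of counts, did not match. Library totals ranged from 25832557 to 69434151 counts.

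Counts were tested with edgeR 4.0.16 in R 4.3.3 (filterByExpr with a minimum count of 10, TMM, quasi-likelihood F-test), with all libraries of a line in 1 fit; differences between lines came from a joint fit of untreated and afatinib libraries. Adjustment was by Benjamini-Hochberg over all genes tested. DESeq2 1.42.0, library size alone, other filters, only the compared groups, a replicate block and leaving out each replicate were alternatives. Scripts were tested on simulated counts.

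The members and lists were chosen with earlier results of these data known. Full values are given for members past both limits against untreated cells in at least 1 comparison, ranges and counts for the others with values for those that passed or were of interest after their values were seen; of each pathway list at most 4 genes per comparison with the largest change were named. Some genes of these lists are not reported here. The 3 genes with the highest Pearson's r were named for each of the 3 members with the widest spread. In 7 of 8 sets of a line and time, every pair of same-numbered replicates had r above 0.1, the limit set for a pairing. Their mean r was 0.468 to 0.737, with the lowest pair at 0.202 or more. MKN1 cells at 24 h missed this limit, with the lowest pair at -0.246, although their mean r was 0.384 and the highest 0.736. The number may thus mark a pairing, less clearly so in MKN1 cells at 24 h, and its origin is not in the labels. The main tests, on which the stated rises and falls rest, used no pairing. The number entered as a block in an alternative only. This choice mattered most visibly for afatinib in Hs746T cells at 4 h, where 0% of all genes passed without the block and 18.6% with it. Between untreated cells at 4 h and at 24 h, r of same-numbered libraries was 0.223 to 0.804 over the 4 lines; over every treatment the lowest was -0.0937.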

Additional observations from a re-analysis of the deposited data

Results flagged for a closer look

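The effect of afatinib on 4 members differed between lines by a tested interaction (edgeR's joint fit) with a log2 difference above 1 in size. Over the pairs of lines, 0.178% to 2.15% of all genes did so at 4 h and 1.31% to 20.3% at 24 h. The rate of the members at 24 h lay within the latter range, so that it was not particular to them. At 4 h their rate lay above the former range, over pairs of lines that share libraries and are not independent. For SOCS2 at 24 h the difference was 1.40 for MKN1 minus MKN7, 2.61 for MKN1 minus NCI-N87, 1.21 for MKN7 minus NCI-N87 (adjusted p = 0.00917) and -1.61 for NCI-N87 minus Hs746T cells. At 4 h the SOCS2 difference was 1.23 for MKN1 minus NCI-N87 (adjusted p = 0.0469) and -1.27 for NCI-N87 minus Hs746T cells (adjusted p = 0.0183). For CISH at 4 h it was -1.03 for MKN7 minus Hs746T and -1.56 for NCI-N87 minus Hs746T cells, for SOCS3 at 4 h -1.21 for MKN7 minus Hs746T cells, and for PIM1 at 24 h 1.10 for NCI-N87 minus Hs746T cells. Among these, the SOCS2 differences of MKN1 and of Hs746T from NCI-N87 cells at 24 h passed whichever replicate was left out. All 5 differences at 4 h were lost without replicate 2.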

How the results depend on the processing

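Of 52 named log2FC values that had passed in the main tests, 0 reversed under any alternative and 14 kept their call in each. DESeq2 kept the call of all 52. The replicate block kept that of all 45 within a time and, as a block over both times, of the other 7. Library size alone ended 15 calls, only the compared groups 11, no filter 9 and 10 counts in every library 2. Leaving out replicate 1, 2 or 3 ended 24, 25 and 17. Calls that an alternative added are not counted here, such as those of PIM3 in NCI-N87 cells with the replicate block. Without TMM the median over all genes moved by over 0.1 (log2) in 14 of 78 comparisons.

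With the replicate block the number of members passing became 4 with EGF, 3 with cetuximab and 1 for EGF + cetuximab against EGF in MKN1 cells at 4 h, and 2 with afatinib in Hs746T cells at 4 h. In MKN1 cells at 24 h the correlation of same-numbered replicates averaged 0.384, but the lowest was -0.246, so that the numbers were not taken as a pairing. With the block the number there became 8 with afatinib, 6 with EGF, 5 with cetuximab and 2 for afatinib against cetuximab. It was 1 for EGF + cetuximab against EGF, 4 for EGF + cetuximab and 8 for trastuzumab + afatinib against untreated cells. The share of all genes with the block is not given for these comparisons. Without a block, 25.6% of all genes passed there with afatinib, 35.8% with EGF, 10.8% with cetuximab and 26.8% with trastuzumab + afatinib. It was 18.6% with EGF + cetuximab, 0.646% for that against EGF and 0.0757% for afatinib against cetuximab. These counts were therefore not read as a result about the members. The replicate number as a block over both times, chosen after seeing the data, gave 16 in place of 7 for untreated cells at 24 h against 4 h over the 4 lines. No paired analysis was possible because the replicate number is nested within the line for untreated cells between lines.

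Other counts of members that moved by over 1.5 times did so as follows. For these, and for the replicates left out below, the share of all genes in the same setting is not given. In MKN1 cells afatinib gave 1 at 4 h and 2 at 24 h with only the compared groups, and 1 at 4 h with library size alone; EGF at 24 h gave 2 with only the compared groups; cetuximab at 4 h gave 1 in DESeq2 and with 10 counts in every library, and at 24 h 0 with only the compared groups, library size alone or no filter. In NCI-N87 cells afatinib at 24 h gave 4 with library size alone. The afatinib effect at 4 h differed between lines for 3 members with no filter. Untreated cells at 24 h against 4 h gave 4 with only the compared groups or no filter.

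Leaving out 1 replicate gave 0 to 1 members for afatinib in MKN1 cells at 4 h and 2 to 6 at 24 h, 2 to 4 in MKN7 cells at 4 h and 4 to 5 at 24 h, 1 to 3 in NCI-N87 cells at 4 h and 5 to 6 at 24 h. It gave 1 to 2 for EGF at 4 h, 1 to 3 for EGF at 24 h, 0 to 1 for cetuximab at each time, 2 to 6 for untreated cells over time, 0 to 3 between lines at 4 h and 3 to 5 at 24 h. Depth limited CISH most, at 10 to 149 counts per library, and SOCS2 was as low as 19 counts in a library.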
